A study of Mus musculus with 9 samples.

Results

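The mitochondrial ribosomal protein genes were all rows of the deposited table whose symbol begins with Mrpl or Mrps followed by a digit, leaving out pseudogene symbols with -ps, of which the table held 0. This rule, which uses no measured value, gave 78 of the 22183 genes of the table, 49 named Mrpl and 29 named Mrps. All 78 passed the filter on low counts, as did 14211 genes in all, and the lowest count of any member in any library was 128. Polyadenylated RNA of mouse tibiae was measured in 9 libraries, 3 in each of 3 groups. Naive tibiae had no treatment, Ti tibiae received titanium particles, and Ti+I-OG tibiae received titanium particles and I-OG, which is an irisin-carrying hydrogel made from natural polymers and given by injection, for 5 weeks; irisin is a hormone released by muscle. The particles model aseptic loosening, in which wear debris leads to bone loss around an implant. The labels give no strain, age or sex, and no time for the naive and Ti groups, and they do not say whether the 3 samples of each group were separate animals. The p-values therefore rest on the spread among the samples as labelled, and part of that spread may be technical.

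Mitochondria keep their own ribosome, which translates the few proteins that mitochondrial DNA encodes, all of them parts of the respiratory chain and the ATP synthase. Its ribosomal RNAs are made inside the organelle, whereas every one of its proteins is encoded in the nucleus, translated in the cytosol and imported, so the genes described here must be expressed alongside the mitochondrial genome. Some of these proteins have bacterial counterparts and others are specific to mitochondria. By role, the 78 members comprised 17 small subunit proteins with a bacterial counterpart, 9 small subunit proteins specific to mitochondria, 30 large subunit proteins with a bacterial counterpart and 21 large subunit proteins specific to mitochondria. Mrps30 and Mrps18a carry a small subunit name but sit in the large subunit and were counted there. Mrps36 stood alone: it is named as a ribosomal protein but is found in the alpha-ketoglutarate dehydrogenase complex, so it is the 1 member whose known role goes against the family's name.

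Library totals ran from 16256081 to 24766502 counts, and the members' share of all counts was 0.237% ± 0.0171 for naive, 0.239% ± 0.00545 for Ti and 0.259% ± 0.0180 for Ti+I-OG (mean ± SD over 3 libraries each). CPM are counts scaled to library size with factors from the trimmed mean of M-values (TMM), while sums over markers are scaled to library totals alone. Bone was present in every library. The summed CPM of 8 osteoblast and osteocyte markers was 882 to 1644 in naive, 2776 to 4228 in Ti and 1631 to 2788 in Ti+I-OG. That of 5 fibroblast and tendon markers was 127 to 364, 878 to 1892 and 645 to 1131, in that order. The part of these sums in the differences between groups below was not tested. The summed CPM of 10 erythroid markers was 32485 to 100018 in naive, 70524 to 104146 in Ti and 156357 to 165057 in Ti+I-OG, and none of the 10 was at 0 in any library. The erythroid sum was thus higher in every Ti+I-OG library than in any other, and its part in the differences between groups below was not tested. In whole tibiae, more cells of a type and more RNA per cell cannot be told apart.

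Libraries stood apart within their groups. The members' level in a library, in which each of the 78 genes counts as its log2 CPM minus its own 9-library mean, was −0.05, −0.08 and −0.30 in naive libraries 1 to 3. It was −0.08, −0.02 and −0.05 in the Ti libraries, and 0.16, 0.35 and 0.06 in the Ti+I-OG libraries. All 3 Ti+I-OG libraries therefore lay above the other 6, while naive and Ti overlapped. Naive library 3 held the lowest value of 48 of the 78 members and Ti+I-OG library 2 the highest value of 59, so results that rest on these 2 libraries are given with and without them.

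**Figure D1:**
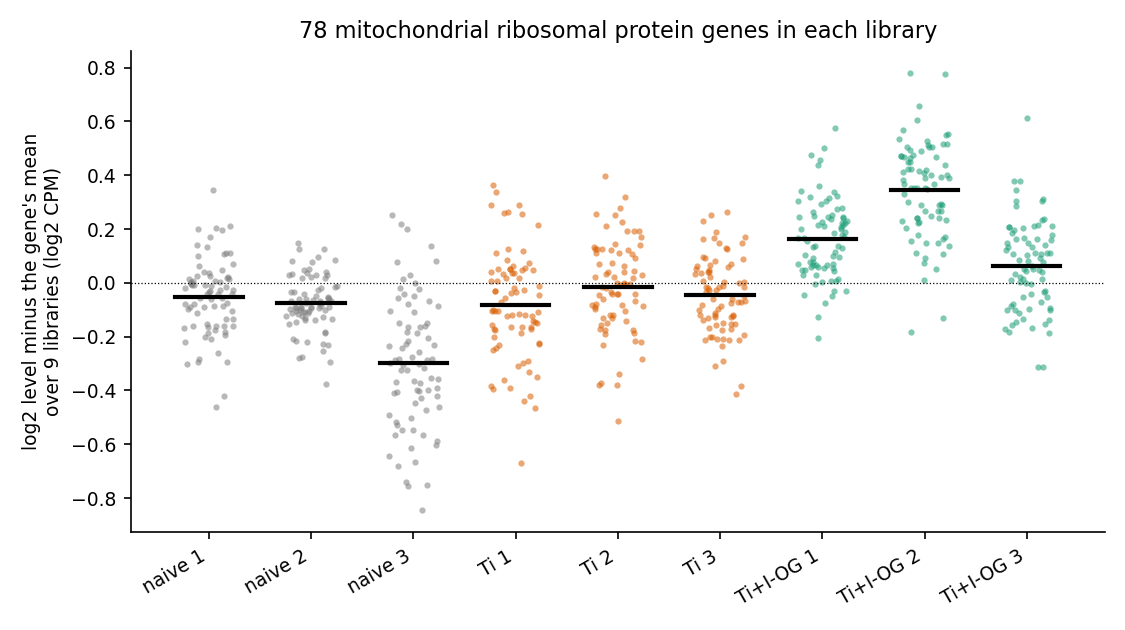
Each point is 1 of the 78 members, at its log2 CPM minus its mean over the 9 libraries (vertical axis), for each library (horizontal axis); black bars are the means over members. The bars of the Ti+I-OG libraries lie at 0.16, 0.35 and 0.06, and naive library 3 is lowest at −0.30.

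Levels differed between members. In FPKM, fragments scaled to transcript length and library depth, on which genes of different length can be compared, the mean over 9 libraries ran from 4.91 to 117, a 23.8-fold range with a median of 24.98, and 67 of the 78 members lay between 10 and 100. The highest members were Mrpl33 (mean FPKM 117), Mrpl20 (92.3), Mrpl30 (82.5), Mrpl18 (66.8) and Mrpl42 (66.3), all proteins of the large subunit. The lowest were Mrps26 (4.91), Mrpl47 (5.15), Mrps35 (5.36), Mrpl19 (6.04) and Mrps25 (8.48). The library values of neighbours in this order overlapped for all 77 neighbouring pairs, so the order between neighbours is not resolved.

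Mrpl33 FPKM was 142, 102 and 83.8 in naive, 118, 127 and 107 in Ti, and 130, 141 and 99.5 in Ti+I-OG. Mrps26 FPKM was 5.28, 4.91 and 5.36 in naive, 4.16, 4.79 and 4.72 in Ti, and 4.70, 4.89 and 5.37 in Ti+I-OG. The groups overlapped for both genes in Ti+I-OG against naive, and the 2 ends of the order were far apart in each library.

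**Figure D2:**
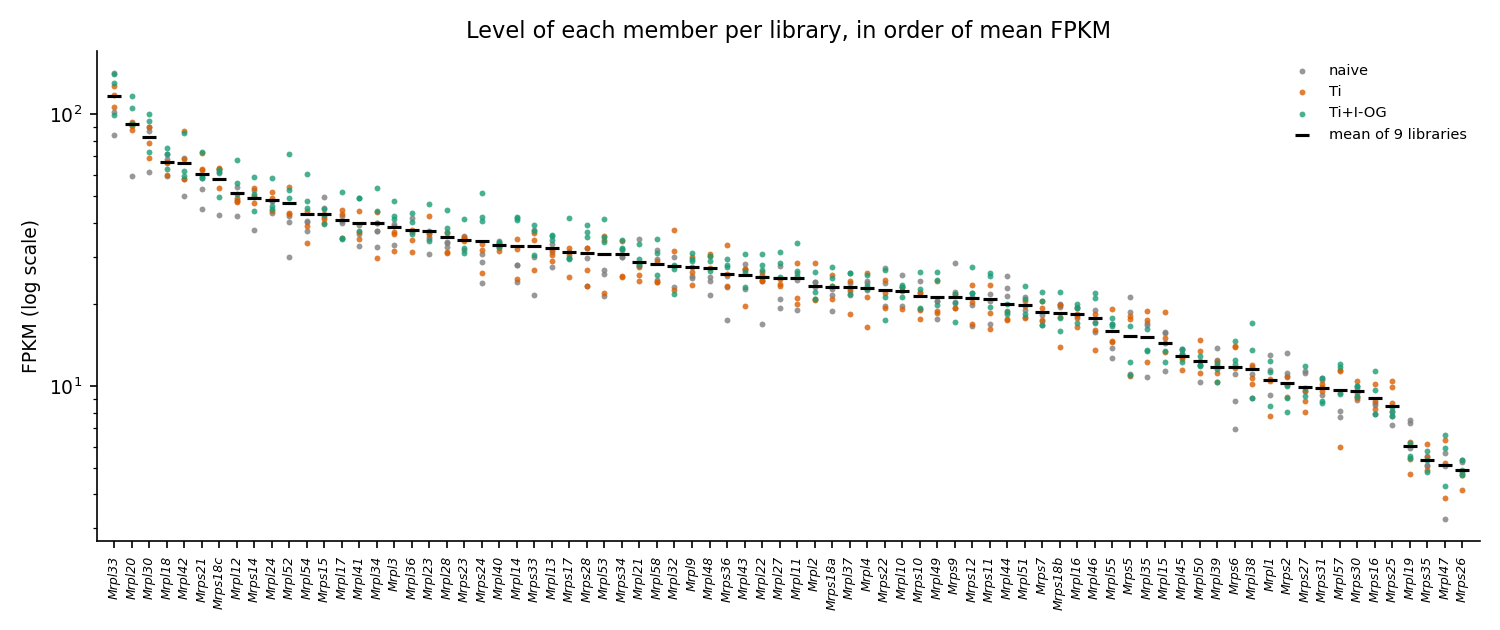
The FPKM of each member in each of the 9 libraries (points, coloured by group, log scale) with the mean of the 9 (black dash), in order of that mean. Levels fall from 117 for Mrpl33 to 4.91 for Mrps26, and the points of neighbouring members overlap.

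The order by FPKM followed transcript length. Transcript length, computed from each gene's count, FPKM and library total, had a median of 1100 nt over the members against 2717 nt over all genes tested, and 56 of the 78 members fell in the shortest quintile of genes tested, up to 1526 nt. The shortest members were Mrpl52 (420 nt), Mrps21 (449 nt), Mrpl33 (479 nt) and Mrpl54 (604 nt), and the longest Mrps25 (6073 nt), Mrpl19 (5000 nt), Mrps26 (4278 nt) and Mrps35 (4162 nt). Across the 78 members, mean FPKM fell with length (Spearman's rho −0.754), whereas mean CPM, which is not divided by length, did not (rho 0.114). Both are descriptions across genes of the same libraries, and FPKM contains the length as its divisor. The 5 members lowest in FPKM were thus not the 5 lowest in counts: Mrps25 had 52.8 ± 3.49 CPM in Ti+I-OG, close to Mrpl33 at 64.1 ± 13.7 CPM (SD, n = 3 each), although its FPKM was lower by more than 10-fold.

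The comparison of Ti with naive tibiae asks what titanium particles changed, although naive tibiae had no sham procedure. None of the 78 members passed the threshold in edgeR's quasi-likelihood test, an adjusted p (Benjamini-Hochberg over the 14211 genes) under 0.05, where 6.43% of all genes tested did. At an unadjusted p under 0.05, 4 members were higher and 1 lower, and 14.4% of all genes tested were higher by that rule. The log2 fold change was above 0 for 55 of the 78 members, against 50.7% of all genes tested, with a median of 0.08 against 0.01. Libraries of the groups did not overlap, with Ti higher, for 9 members, against 14.3% of all genes tested. DESeq2's test called 1 member, Mrps25, and 13.1% of all genes tested.

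The 10 members with the smallest p did not pass. Mrps25, a small subunit protein specific to mitochondria, was at 44.4, 47.5 and 39.9 CPM in naive and 62.6, 59.9 and 52.0 CPM in Ti. All 3 Ti libraries lay above all naive ones (log2 fold change 0.40, SE 0.13, adjusted p = 0.0751). Mrps6, the counterpart of bacterial protein S6, was at 7.02, 9.06 and 5.36 CPM in naive and 11.7, 11.8 and 9.75 CPM in Ti, again without overlap (log2 fold change 0.63, SE 0.21, adjusted p = 0.0900). Mrpl48 (log2 fold change 0.32), Mrps21 (0.44), Mrps36 (0.38), Mrpl53 (0.39), Mrpl52 (0.40) and Mrpl50 (0.26) had positive values. Mrpl44, whose product resembles a ribonuclease III, and Mrpl19 had negative ones, −0.30 and −0.26. Mrpl44 was lower in all Ti libraries (26.5, 24.9 and 24.6 CPM) than in any naive one (28.7, 31.5 and 33.1 CPM).

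By role, the median log2 fold change in Ti was 0.03 for small subunit proteins with a bacterial counterpart, likewise 0.03 for those specific to mitochondria, 0.07 for large subunit proteins with a bacterial counterpart and 0.12 for those specific to mitochondria. The members' median turned to −0.0025 without naive library 3 and to −0.07 with an offset for transcript length. With that offset Mrps25 alone passed (adjusted p = 0.0480), where 5.74% of all genes tested did.

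The comparison of Ti+I-OG with Ti asks what the irisin hydrogel changed in tibiae with particles. It shares the Ti libraries with the comparison above, and the naive and Ti+I-OG libraries are likewise used in more than 1 comparison. No member passed the threshold, where 6 genes, 0.0422% of all genes tested, did. DESeq2 and limma-voom called no member either, where 0.113% and 0.0422% of all genes tested passed. DESeq2 gave 13 members an unadjusted p under 0.05, and the share of all genes at that p was not counted for DESeq2. At an unadjusted p under 0.05, 15 members were higher and none lower, against 4.19% of all genes tested that were higher. The log2 fold change was above 0 for 76 of the 78 members, against 49.6% of all genes tested, with a median of 0.23 against −0.00. Libraries did not overlap, with Ti+I-OG higher, for 26 members, against 7.75% of all genes tested. The 2 members with a negative value were Mrps25 (−0.14) and Mrps2 (−0.03).

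All 49 Mrpl genes had a positive value, with a median of 0.28, and 27 of the 29 Mrps genes did, with a median of 0.16. By role, the median was 0.27 for the 30 large subunit proteins with a bacterial counterpart, 0.25 for the 21 specific to mitochondria, 0.17 for the 17 small subunit proteins with a bacterial counterpart and 0.12 for the 9 specific to mitochondria. The difference between subunits was not tested.

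The members with the smallest p, none of which passed (adjusted p = 0.628 for each of the 10), were 8 large and 2 small subunit proteins. Mrps24, the counterpart of bacterial protein S3 near the entry of the messenger channel, was at 25.8, 31.3 and 32.8 CPM in Ti and 45.6, 57.1 and 41.1 CPM in Ti+I-OG (log2 fold change 0.68, SE 0.17). Mrpl14, which lies at the interface between the subunits, was at 15.8, 20.5 and 22.2 CPM in Ti and 29.4, 30.01 and 27.1 CPM in Ti+I-OG (0.56, SE 0.16). Groups did not overlap for either gene. Mrps28 had a log2 fold change of 0.55 (SE 0.17) and Mrpl54 of 0.52 (SE 0.16). Mrpl11 (0.43) and Mrpl12 (0.40), which build the stalk that recruits translation factors, had similar values, as did Mrpl46 (0.44), Mrpl28 (0.39), Mrpl13 (0.37) and Mrpl3 (0.35). Without Ti+I-OG library 2 the number of members at an unadjusted p under 0.05 was 4 rather than 15, and the median was 0.15. The share of all genes at that p was not counted in this fit.

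In the comparison of Ti+I-OG with naive tibiae, 4 of the 78 members rose and none fell, where 8.26% of all genes tested passed the threshold and 3.84% passed it as higher. At an unadjusted p under 0.05, 36 members were higher and none lower, against 15.6% of all genes tested that were higher. The log2 fold change was above 0 for 73 members, against 52.7% of all genes tested, with a median of 0.32 against 0.03, and libraries did not overlap, with Ti+I-OG higher, for 44 members, against 18.7%. The share of members called, 4 of 78, thus lay near the background of all genes, and the shares of positive and of non-overlapping members lay above it. Without naive library 3, the number of members at an unadjusted p under 0.05 was 14 rather than 36. It was 9 without Ti+I-OG library 2, and 4 without both, a choice made after seeing the data. The share of all genes at that p was not counted in these fits. Genes of like length are set beside the members further below. The labels give no pairing, but same-numbered libraries of this comparison met the correlation cut described in the processing notes. With the replicate number as a block, 31 members rose, where 12.1% of all genes tested did. With the block and an offset for transcript length together, 3 members rose, Mrpl47, Mrps24 and Mrps25, where 14.8% of all genes passed in either direction.

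Mrps24 rose from 28.7, 27.4 and 21.8 CPM in naive to 45.6, 57.1 and 41.1 CPM in Ti+I-OG, which is 0.88 on the log2 scale (SE 0.17, adjusted p = 0.0192). Mrpl14 rose from 16.9, 17.4 and 14.2 CPM to 29.4, 30.01 and 27.1 CPM (0.83, SE 0.16, adjusted p = 0.0198). For both genes Ti library 1 lay within the naive range, Ti libraries 2 and 3 lay above it, and every Ti+I-OG library was above all 6 others. Mrpl52, a large subunit protein specific to mitochondria, rose from 15.9, 17.0 and 11.4 CPM to 24.1, 33.3 and 21.2 CPM (0.82, SE 0.21, adjusted p = 0.0379). Mrpl53, of the same kind, rose from 16.9, 17.9 and 13.6 CPM to 31.2, 27.4 and 24.1 CPM (0.77, SE 0.20, adjusted p = 0.0403). The Ti libraries of these 2 genes, at 22.5, 18.0 and 17.9 CPM for Mrpl52 and 15.1, 23.9 and 24.5 CPM for Mrpl53, overlapped those of Ti+I-OG.

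**Figure D3:**
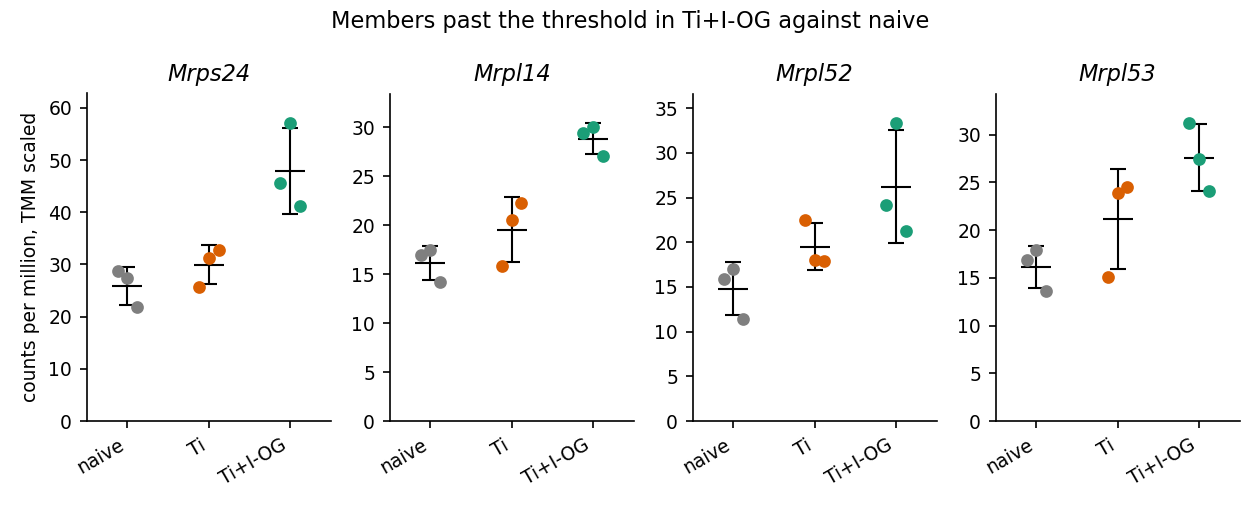
TMM-scaled CPM of the 4 members past the threshold in Ti+I-OG against naive, by group; points are libraries, dashes and bars the mean ± SD of 3. The Ti+I-OG points of Mrps24 (41.1 to 57.1 CPM) and Mrpl14 (27.1 to 30.01 CPM) lie above all other libraries, and those of Mrpl52 and Mrpl53 overlap with Ti.

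Exons of Mrps24, Mrpl14 and Mrpl53 overlap those of another gene of the table in the GENCODE annotation, so their values are uncertain, and Mrpl52 has no such overlap. The members next in order did not pass: Mrpl54 (log2 fold change 0.58, adjusted p = 0.05005), Mrps6 (0.74, adjusted p = 0.0525), Mrps28 (0.58), Mrpl28 (0.44), Mrpl9 (0.40) and Mrpl41 (0.53). None of the 4 calls stood without naive library 3, without Ti+I-OG library 1 or without Ti+I-OG library 2. In these fits 1.3%, 1.09% and 0.41% of all genes passed, in that order. Without naive library 1 or Ti+I-OG library 3, 2 members passed, Mrps24 and Mrpl14, where 2.57% and 2.78% of all genes did. Without naive library 2, 7 members and 14.7% of all genes passed. The median of the members was 0.17 without naive library 3 and Ti+I-OG library 2 together, an alternative chosen after seeing the data.

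Upstream sequence was taken from RefSeq promoters on GRCm38.p6, which hold 75 starts of 69 of the 78 members. Over the 250 bases before each start, the members' median GC content was 58.4%, against 52.4% over all 32851 starts of the table. Matches to 6 short motifs were counted on both strands. NRF1-type letters (GCGCATGC) were found in 10.7% of the members' windows and 2.26% of all windows, and ETS-type letters (CCGGAAGT) in 13.3% and 2.88%. SP1-type letters (GGGCGG) were in 49.3% and 32.7%, YY1-type letters (AAGATGGC) in 5.33% and 1.56%, the E-box (CACGTG) in 9.33% and 6.02%, and the CRE (TGACGTCA) in 2.67% and 1.55%. NRF1 and ETS factors of the GABP kind are known as regulators of nuclear genes for mitochondrial proteins; here the matches only describe the letters, and the windows of all genes include genes of every kind.

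Among the called members, the windows of Mrps24 and Mrpl52 touch no annotated exon and are shown whole, 5′ to 3′ on the strand of the gene, with matches in capitals; that of Mrps24 holds a pair of adjacent SP1-type matches on the opposite strand, and that of Mrpl52 holds no match.
Mrps24, chr11:5707702-5707951, minus strand: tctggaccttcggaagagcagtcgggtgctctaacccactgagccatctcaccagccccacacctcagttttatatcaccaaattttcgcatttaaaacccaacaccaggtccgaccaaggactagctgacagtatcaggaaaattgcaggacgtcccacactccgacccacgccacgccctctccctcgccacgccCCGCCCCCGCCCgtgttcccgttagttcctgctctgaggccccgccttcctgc
Mrpl52, chr14:54426659-54426908, plus strand: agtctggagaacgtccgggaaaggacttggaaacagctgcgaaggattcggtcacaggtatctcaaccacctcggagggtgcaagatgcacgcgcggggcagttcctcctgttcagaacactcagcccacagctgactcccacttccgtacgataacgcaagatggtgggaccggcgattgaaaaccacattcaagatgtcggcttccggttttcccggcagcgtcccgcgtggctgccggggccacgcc

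All 6 motifs had a higher share in the members' windows, but the YY1-type, E-box and CRE shares rest on 4, 7 and 2 of the 75 windows. The 7 E-box windows belong to 5 genes, and 3 of them are starts of Mrpl2. For the NRF1-type and ETS-type motifs, named above as known for mitochondrial genes, 30 bases around each match that lies outside annotated exons are shown, with the match in capitals. The NRF1-type matches of this kind belong to Mrpl10 (on the opposite strand) and Mrpl22.
Mrpl10, chr11:97041437-97041466, plus strand: cccagctccacGCATGCGCatagcggccct
Mrpl22, chr11:58171620-58171649, plus strand: ggcctcggactGCGCATGCgtatagtcagc
The ETS-type matches belong to Mrpl43, Mrpl48, Mrps22 and Mrps27, on the opposite strand for Mrpl48 and Mrps27.
Mrpl43, chr19:45006443-45006472, minus strand: catgccacaaccccggaaCCGGAAGTcacc
Mrpl48, chr7:100583147-100583176, minus strand: gggttttaaaaACTTCCGGaaccaagatgc
Mrps22, chr9:98601680-98601709, minus strand: tgcacaaaaacctctcgagCCGGAAGTtgc
Mrps27, chr13:99344726-99344755, plus strand: gtggtaggaccACTTCCGGcggaggcgggc

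Medians were lower over members with these letters in the comparison with naive tibiae, a difference that was not tested. In Ti+I-OG against naive the median log2 fold change was 0.23 over the 8 members with an NRF1-type match, 0.27 over the 10 with an ETS-type match and 0.39 over the 51 with neither, and the 4 called members were all among the last. In Ti+I-OG against Ti the medians were 0.20, 0.24 and 0.22. Median transcript lengths of these sets were 1012, 1250 and 1028 nt, in the same order, and the part of length was not tested.

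Fold changes fell with transcript length in every comparison, among all genes as among the members. Spearman's rho between log2 fold change and length was −0.24 over all genes tested in Ti against naive, −0.32 in Ti+I-OG against Ti and −0.40 in Ti+I-OG against naive. Over the 78 members it was −0.36, −0.29 and −0.53. These are descriptions across genes, which share libraries and are not replicates. The libraries differed the same way: in naive library 3 the median level was −0.32 in the shortest quintile of genes and 0.28 in the longest, and in Ti+I-OG library 2 it was 0.28 and −0.21. Whether RNA quality or library preparation lies behind this trend was not tested.

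Read against genes of their own length, the members' difference was smaller in Ti+I-OG against naive. In the shortest quintile, the 56 members had a median log2 fold change of 0.38 and all genes 0.34. The corresponding medians were 0.27 and 0.14 in Ti+I-OG against Ti, and 0.07 and 0.17 in Ti against naive. In Ti+I-OG against naive 54 of these 56 members were above 0, against 80.2% of all genes of that quintile. Of the 56, 4 passed the threshold, against 10.8% of all genes there in either direction. Medians of the longer members lay above those of all genes of like length: in the fourth quintile, 3163 to 4492 nt, the 5 members had a median of 0.27 in Ti+I-OG against naive while all genes had −0.10. In the third quintile the 6 members had 0.21 and all genes −0.01.

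**Figure D4:**
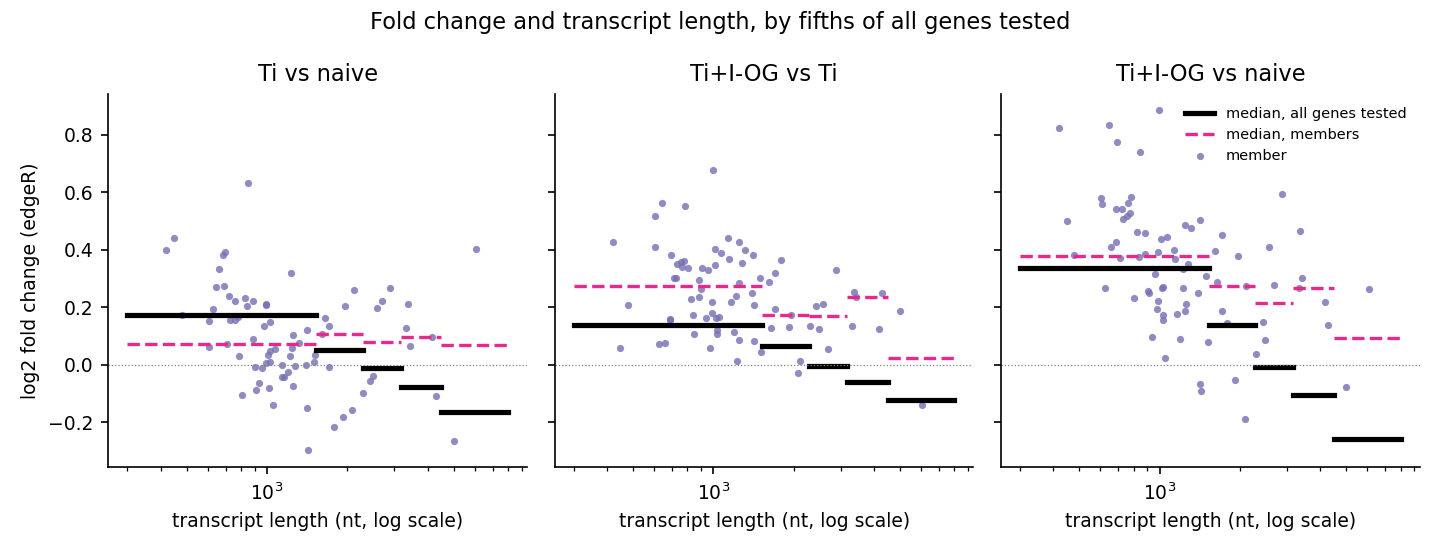
Log2 fold change (vertical axis) of the 78 members (points) against transcript length (nt, log axis) in the 3 comparisons; solid bars are medians of all genes tested and dashed bars medians of the members in each quintile of length. Bars of all genes fall from 0.34 in the shortest quintile to −0.26 in the longest in Ti+I-OG against naive, while the members' bars are 0.38 and 0.09.

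With the length trend of each library entered as an offset, the correlation over all genes was 0.01 in Ti+I-OG against naive and that over members 0.26. The members' median log2 fold change was then −0.07 in Ti against naive, 0.11 in Ti+I-OG against Ti and 0.06 in Ti+I-OG against naive, with 28, 56 and 45 of the 78 members above 0. Of all genes tested, 48.4%, 48.6% and 49.6% were above 0 with the offset, in that order. In Ti+I-OG against naive 1 member passed with the offset, Mrps24 (log2 fold change 0.52, adjusted p = 0.0482), where 2.47% of all genes tested did. Mrpl14 (0.38, adjusted p = 0.168), Mrpl52 (0.27, adjusted p = 0.231) and Mrpl53 (0.34, adjusted p = 0.291) did not. The members' level after the trend was taken off was −0.01 ± 0.02 in naive, −0.07 ± 0.02 in the Ti group and 0.05 ± 0.05 with I-OG added (SD over 3 libraries), so the Ti libraries were lowest, and the level of naive library 3 moved from −0.30 to −0.04.

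Counts and FPKM gave nearly equal ratios for most members. Because FPKM divides by a length estimated in each library, a gene whose estimated length changes between groups has different ratios on the 2 scales. The length stayed within 1% over the 9 libraries for 42 of the 78 members, against 35.6% of genes with a length in all 9. The log2 ratio of group means from counts per library total and from FPKM differed by at most 0.02 for 64 members in Ti against naive, 60 in Ti+I-OG against Ti and 59 in Ti+I-OG against naive. Mrps24, Mrpl14 and Mrpl53 had the same length in every library (995, 645 and 695 nt), and their ratios did not depend on the scale.

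A few members did depend on it. Mrps5, whose estimated length ran from 1670 to 2869 nt, had a Ti+I-OG to Ti log2 ratio of 0.01 from counts and −0.23 from FPKM. Mrpl58, a peptidyl-tRNA hydrolase built into the large subunit, had a Ti to naive ratio of 0.02 from counts and −0.14 from FPKM. Mrpl15 had a Ti+I-OG to naive ratio of 0.08 from counts and −0.10 from FPKM, and Mrps17 one of −0.03 from counts and 0.13 from FPKM. Mrpl1 had a Ti+I-OG to Ti ratio of −0.00 from counts and 0.15 from FPKM. For these genes the sign of a difference depended on the unit.

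**Figure D5:**
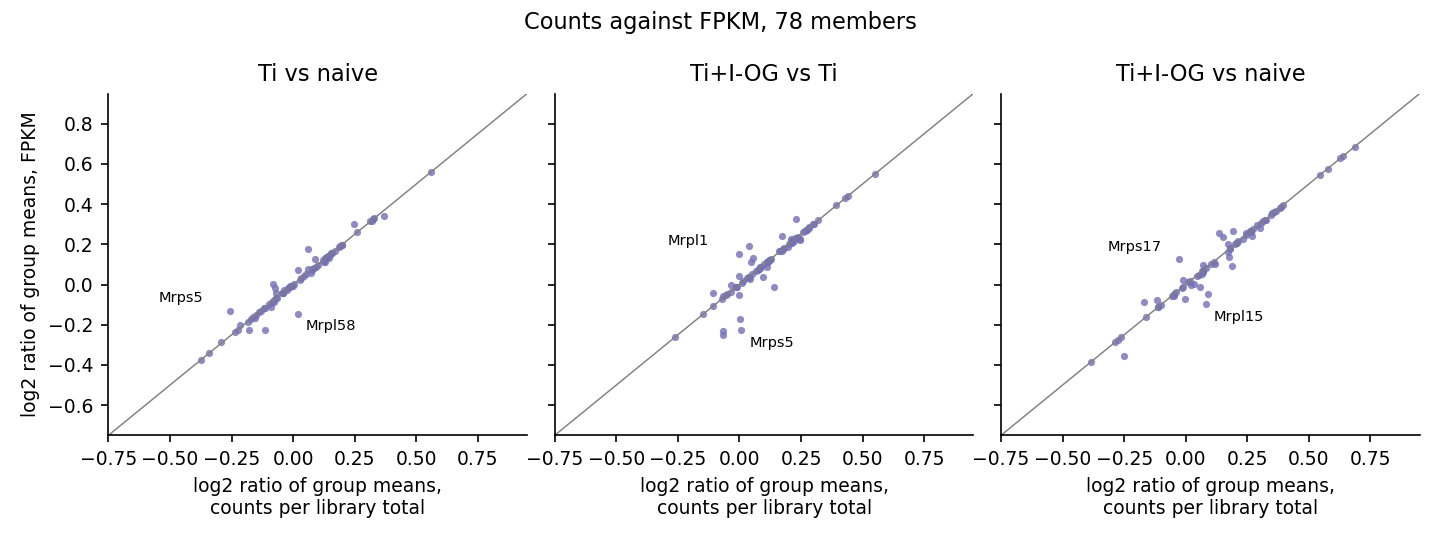
Log2 ratio of group means of the 78 members from counts per library total (horizontal axis) and from FPKM (vertical axis) in the 3 comparisons, with the line of equality and the members farthest below and above it named. Most points lie on the line, and Mrps5 in Ti+I-OG against Ti lies at 0.01 and −0.23.

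TMM raises the Ti+I-OG values relative to library totals: scaled to totals, the median log2 fold change of all genes tested in Ti+I-OG against naive was −0.16 rather than 0.03, and that of the members 0.13 rather than 0.32, so that the members lay 0.29 above the median of all genes on either scale. In Ti+I-OG against Ti the members lay 0.23 above it scaled to totals and 0.24 with TMM, and in Ti against naive 0.08 on both. Scaled to totals, 58 of the 78 members had a positive value in Ti+I-OG against naive, where 36.2% of all genes tested did. In Ti+I-OG against Ti it was 59 of the 78, where 31.6% of all genes tested had a positive value. The direction of some single members thus depends on the scale.

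Other genes of mitochondrial translation, from lists drawn up with earlier results known, showed 1 call in the 3 comparisons. Of the 5 mitochondrial ribosomal proteins with other symbols, Chchd1 rose in Ti+I-OG against naive (log2 fold change 0.80, SE 0.22, adjusted p = 0.0450), from 28.7 ± 6.56 to 50.1 ± 12.6 CPM (SD, n = 3 each). Chchd1 lost this call in 13 of 21 alternatives, among them the length offset (log2 fold change 0.33, adjusted p = 0.188) and leaving out naive library 1 or 3 or Ti+I-OG library 1 or 2. The median of the 5 was 0.45, all were above 0, and none passed in the other comparisons, where Chchd1 had 0.52 and Gadd45gip1 0.37 in Ti+I-OG against Ti. None of the 25 assembly and ribosomal RNA modification genes passed in any comparison. Their medians were 0.00 in Ti against naive, 0.16 in Ti+I-OG against Ti and 0.11 in Ti+I-OG against naive, with the GTPase gene Mtg1 at 0.48 and the methyltransferase gene Mrm1 at 0.38 in the second of these.

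None of the 17 translation factors passed, with medians of −0.04, 0.05 and 0.07. Slirp, whose product stabilises mitochondrial messengers, had 0.65 in Ti against naive (adjusted p = 0.105) and 0.70 in Ti+I-OG against naive (adjusted p = 0.0728). None of the 20 aminoacyl-tRNA synthetase genes passed, with medians of −0.18, 0.17 and 0.00. Tars2, for threonine, had −0.37 in Ti against naive and 0.30 in Ti+I-OG against Ti, and Nars2, for asparagine, had 0.39 in Ti+I-OG against Ti. None of the 20 genes of mitochondrial transcription, RNA processing and their nuclear regulators passed, with medians of −0.09, 0.09 and −0.05; Tfam, which packages and transcribes mitochondrial DNA, had 0.30 in Ti against naive and 0.36 in Ti+I-OG against naive.

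The proteins that the mitochondrial ribosome itself makes are encoded by 13 mitochondrial genes, whose RNA was also measured. In Ti against naive all 13 had a positive log2 fold change, with a median of 0.93, and 2 rose, the complex I subunit genes mt-Nd6 (0.94, SE 0.20, adjusted p = 0.0228) and mt-Nd2 (0.91, SE 0.22, adjusted p = 0.0353). Of the 14211 genes tested, 575 rose in this comparison. With the length offset neither mt-Nd6 (adjusted p = 0.0567) nor mt-Nd2 (adjusted p = 0.0752) passed, nor did either without naive library 1 or 3 or Ti library 1 or 2. These libraries do not mark strand, so RNA from the opposite strand of either gene cannot be told from its own. In Ti+I-OG against Ti all 13 had a negative value, with a median of −0.50, and none passed. The members had 55 and 76 of 78 values above 0 in these comparisons, and the difference between the lists was not tested. Summed CPM of 9 skeletal muscle markers, a tissue rich in mitochondria, was 1007 to 2854 in naive, 2169 to 7610 in Ti and 2946 to 5100 in Ti+I-OG; all 9 were detected in every library and their part was not tested.

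Cytosolic ribosomal proteins and nuclear respiratory chain subunits are families of comparably short transcripts. In Ti+I-OG against naive 3.84% of all genes tested rose, and in the shortest quintile of genes 10.8% passed in either direction. Of 84 cytosolic ribosomal protein genes 11 rose, with a median log2 fold change of 0.51 over the 84. Among the 11 were Rpl36 (0.69, adjusted p = 0.0288), Rps14 (0.87, adjusted p = 0.0394), Rps15 (0.77) and Rpl41 (0.92). Of 83 nuclear genes for respiratory chain subunits 23 rose, with a median of 0.53, among them Uqcrq (0.71, adjusted p = 0.0247) and Uqcr10 (0.76, adjusted p = 0.0250) of complex III. Their median lengths were 717 and 716 nt, shorter than the members' 1100 nt, and with the length offset their medians were 0.08 and 0.11, beside 0.06 for the members. With that offset none of the cytosolic ribosomal protein genes passed and 1 respiratory chain gene did rather than 23, with Rpl36 at an adjusted p of 0.554, Rps14 at 0.169, Uqcrq at 0.238 and Uqcr10 at 0.262. In Ti against naive none of the cytosolic ribosomal protein genes passed and 2 respiratory chain genes rose, Ndufa4l2 (2.12, adjusted p = 0.0122) and the muscle isoform gene Cox7a1 (2.07, adjusted p = 0.0388), of which Cox7a1 did not pass with the offset (adjusted p = 0.0585). In Ti against naive the medians of the 2 families were 0.26 and 0.33 and that of the members 0.08, and in Ti+I-OG against Ti 0.28, 0.18 and 0.23. The differences between the families were not tested.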

How the data were processed

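The members, the lists and the tests were chosen with earlier results of these data known. Tibial RNA was enriched for poly(A) and made into libraries with a kit that does not mark strand, per the labels' protocols; tools listed in the submitters' processing notes, with no role, are RSEM, StringTie 1.3.1, edgeR, DESeq2 and fastp, and no source used here names an aligner or build. The authors deposited, for each of 9 libraries and 22183 genes, an estimated count, rounded here to a whole number, and an FPKM value. Groups came from the sample titles.

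One fit of all libraries with edgeR 4.0.16 in R 4.3.3 (filterByExpr, TMM, quasi-likelihood test, 6 residual degrees of freedom, two-sided) gave the 3 contrasts; p-values were adjusted over 14211 genes with a threshold of 0.05. The SE was taken as |log2 fold change| / √F. CPM values are TMM-scaled, and the sums over cell type markers are scaled to library totals alone. Transcript length is the count divided by FPKM and by the library total, rescaled to nucleotides, as the median over libraries with at least 10 counts. The length offset is a lowess curve (span 0.5) of each library's log2 CPM deviation on log2 length. The fit was tested on simulated data.

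Same-numbered libraries deviated together in Ti+I-OG against naive (correlations 0.20, 0.11 and 0.27, each above 0.1). That comparison is therefore also given with the replicate number as a block. In Ti against naive the correlations were −0.02, 0.33 and 0.24. They were 0.07, 0.20 and 0.22 in Ti+I-OG against Ti, so in each of these 1 of 3 was under 0.1. The labels give no pairing, and the cut of 0.1 was not tested.

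For each comparison the text names the members past the threshold and those next in p up to 10, with the 5 highest and 5 lowest by FPKM, the 4 shortest and 4 longest, and up to 4 called genes, or else the 2 with the smallest p, of each other list; the 5 members with the largest gap between counts and FPKM, Mrps2 and Mrps11, were added after their values were seen. Alternatives were DESeq2 1.42.0, limma 3.58.1 (voom, and trend on log2(FPKM + 1) or log2(FPKM + 0.1)), other scalings, no filter, the replicate block, the length offset and leaving out each library. Promoter windows came from RefSeq and exon overlaps from GENCODE M21, matched by symbol and gene ID; gene coordinates of the authors' build are not used here.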

Additional observations from a re-analysis of the deposited data

How the results depend on the processing

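The count of members called in Ti vs naive, 0, was 1 with DESeq2 (13.1% of all genes tested called) and with the length offset (5.74%), 4 with the replicate block (20.9%), 2 with the length offset and block together (19.0%) and 2 with the block in a fit of only the compared groups (14.8%), an alternative added after seeing the data; leaving out libraries gave 0 to 1. In Ti+I-OG vs Ti it was 0 in every alternative run. In Ti+I-OG vs naive, 4, it was 14 with DESeq2 (17.2% of all genes called) and 31 with the replicate block (24.3%). With the block in a fit of only the compared groups it was 28 (23.7%), and with the block and length offset 3 (14.8%). It was 1 with the length offset (2.47%) and 0 for log2(FPKM + 1) with no filter (1.05%). Without naive library 3 and Ti+I-OG library 2 together it was 0 (0.16%), and leaving out single libraries gave 0 to 7.

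The median in Ti vs naive reversed to −0.067 with the length offset and −0.069 with offset and block, and leaving out libraries gave −0.0025 to 0.139. In Ti+I-OG vs Ti it moved from 0.233 to 0.110 on library totals, 0.112 with the length offset, with and without the block, 0.109 for log2(FPKM + 1), with and without the filter, and 0.115 for log2(FPKM + 0.1); leaving out libraries gave 0.148 to 0.286. In Ti+I-OG vs naive it moved from 0.324 to 0.128 on totals, 0.062 with the offset, 0.064 with offset and block, 0.104 for log2(FPKM + 1), with and without the filter, 0.108 for log2(FPKM + 0.1) and 0.169 without the 2 libraries that stood apart; leaving out libraries gave 0.220 to 0.379. The cause of these shifts was not tested. Only in Ti+I-OG vs naive did all 3 correlations of same-numbered libraries exceed 0.1, a cut that was not tested, and the labels give no pairing. None of the members named for its p changed direction in the 21 alternatives run for each. With 3 libraries a group and SEs of 0.12 to 0.26, differences of the size seen here could often not be told from the spread.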

Other observations

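Exons of 22 of the 78 members overlap those of another gene of the table in GENCODE, mostly on the opposite strand, which these libraries do not tell apart. The largest overlap is that of Mrps25 with Nr2c2, a nuclear receptor gene on the opposite strand, over 4590 bases. In Ti against naive Nr2c2 fell by 1.13 on the log2 scale (edgeR, adjusted p = 0.0138) while Mrps25 had a log2 fold change of 0.40; in Ti+I-OG against naive the values were −1.29 (adjusted p = 0.0106) and 0.26. Mrps6 shares 159 bases with Slc5a3, a myo-inositol transporter gene on the same strand, which rose by a log2 fold change of 1.27 in Ti (adjusted p = 0.04998, just under the threshold), where Mrps6 had 0.63. Mrps24 shares 226 bases with Urgcp (log2 fold change 0.15 in Ti+I-OG against naive, beside 0.88), Mrpl14 shares 106 bases with Tmem63b (0.29 beside 0.83), and Mrpl53 lies within exons of Gm42688 (−0.09 beside 0.77). Mrpl46 and Mrps11 overlap each other by 173 bases and had log2 fold changes of 0.40 and 0.44 in Ti+I-OG against naive. Over the 22 members the median in that comparison was 0.37, and over the other 56 it was 0.30. How the deposited counts divide shared reads was not tested.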
